A study of Homo sapiens with 23 samples.

Results

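The R175H line is an MCF10A culture that stably expresses the p53 mutant R175H, in which a histidine replaces an arginine of the DNA-binding domain, and its RNA library was compared with those of the other 9 mutant p53 lines of the same panel. It is 1 of 13 RNA libraries and 1 of 23 samples in all, which also hold 5 ChIP libraries of V5-tagged p53 and 5 input DNA libraries. The other mutants were G245S, H179R, R248Q, R248W, R273C, R273H, Y163C, Y220C and Y234C, and the 3 control lines were WT (the parental cells), WTKD (an shRNA against p53) and WTOE (more wild-type p53). The samples were chosen by their labels and not by any measured value. MCF10A is a non-transformed human mammary epithelial line that keeps its own wild-type p53, so mutant and wild-type p53 are present together in every mutant line. The mutants were delivered by lentivirus in the vector pLenti4/V5-DEST and wild-type p53 for WTOE in pLX304, the cells were not treated, and vector and genotype therefore cannot be told apart when WTOE is set against a mutant. There was 1 library per line and no replicate, so no test was run, and any difference described here lies between these libraries. The 5 ChIP libraries are of WTOE, Y220C, R273C, R273H and Y234C, so none of them is of R175H.

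p53 is a transcription factor that binds DNA as a tetramer and switches on genes that stop the cell cycle, repair DNA or start apoptosis. The arginine replaced in R175H lies next to the site where the DNA-binding domain holds a zinc ion, and its replacement is the textbook example of a structural mutation, in which the domain loses zinc and misfolds. Misfolded p53 is held by heat shock chaperones and is handed to ubiquitin ligases for degradation by the proteasome. The histidine replaced in H179R is itself a ligand of that zinc ion, whereas the arginines replaced in R248Q, R248W, R273C and R273H touch DNA.

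Direct targets of p53 were first read in every library, on the log2(TPM+1) scale, where TPM counts a gene's transcripts per length in a library total that is equal for all libraries. CDKN1A (ENSG00000124762), which encodes the cell cycle inhibitor p21, was at 7.66 in R175H against 5.18 to 8.02 in the other mutants (median 7.09) and at 7.78 in WT, 6.95 in WTKD and 6.46 in the library labelled WTOE. MDM2 (ENSG00000135679), the ubiquitin ligase that degrades p53, was at 5.54 in R175H, with 4.34 to 6.43 in the other mutants (median 5.84), 5.87 in WT, 6.25 in WTKD and 5.89 in the library labelled WTOE. For both direct targets R175H lay inside the range of the other mutant lines, and for MDM2 it lay below all 3 controls.

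**Figure D1:**
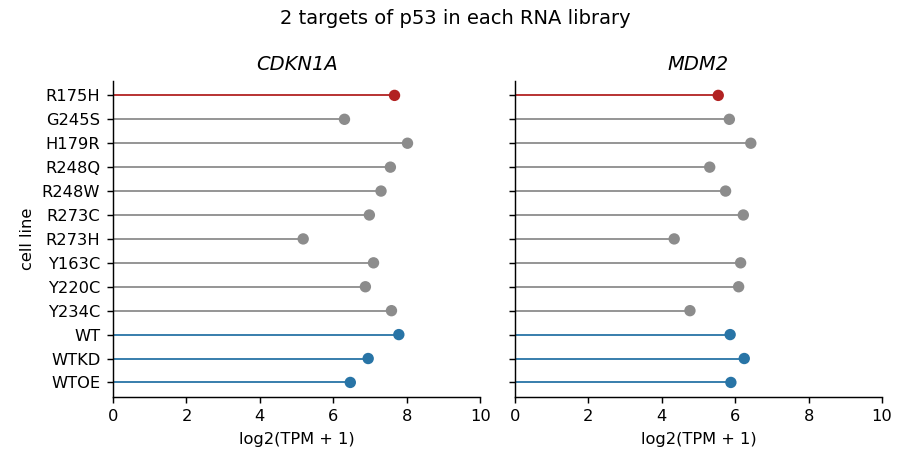
Levels of CDKN1A and MDM2 on the log2(TPM+1) scale in each of the 13 RNA libraries, 1 point per library (red R175H, grey other mutants, blue controls). R175H lies inside the range of the other 9 mutant lines for both genes, with CDKN1A at 7.66 and MDM2 at 5.54.

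The R175H library listed 13080 genes above 0, where the other mutant libraries listed 12122 to 15975, and its 50 highest genes took 33.6% of all TPM, where the others had 27.1% to 46.8%. Of 58358 genes in the table, 14884 reached a value of 1 in at least 3 of the 13 libraries and were examined. Over these the median difference between R175H and the mean of the other 9 lines was -0.17, so a relative difference is given below, which is the difference with this shift taken out. The cells were checked against marker lists. None of 11 basal mammary markers was listed at 0 in R175H, while 2 of 9 general epithelial markers (KRT19 and CLDN4), 6 of 8 luminal hormone receptor markers, 5 of 9 fibroblast markers, 7 of 8 blood markers, 4 of 7 neural markers and all 7 endothelial markers were. A value of 0 in this table need not mean that a gene is silent, since PSMC1 of the proteasome, NDUFV2 of mitochondrial complex I and the adhesion kinase ILK, which most cells use, were listed at 0 as well. The same limit holds for every gene given below as listed at 0. Uncalled genes given below for context were chosen after their values were seen. The TPM table keeps no read depth, so the counting error behind a value is unknown. The authors report that most RNA reads were duplicates and that mitochondrial reads took up a large share that varied between libraries. How far this bears on single high values or on values of 0 was not tested.

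A gene was called higher in R175H where its value was at least 2 above the mean of the other 9 mutant lines and above the highest of them, and called lower by the mirror rule. By this rule 410 genes were higher, which is 2.75% of the genes examined, and 191 were lower, which is 1.28%. Without the size limit, R175H lay above all 9 other lines at 1184 genes (7.95%) and below all 9 at 733 genes (4.92%). Put through the same rule, the other 9 lines gave 305 to 656 higher and 26 to 1673 lower genes, and both counts of R175H lie inside these ranges. Only R273H (1448) and Y234C (1673) gave more lower genes than R175H, and the rest gave 26 to 148. The balance depended on 2 libraries. R273H and Y234C held the most low values, and with both left out 372 genes were higher and 392 lower, so that 48.7% of the called genes were higher in place of 68.2%. With a pseudocount of 5 TPM in place of 1 the counts were 141 and 28.

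**Figure D2:**
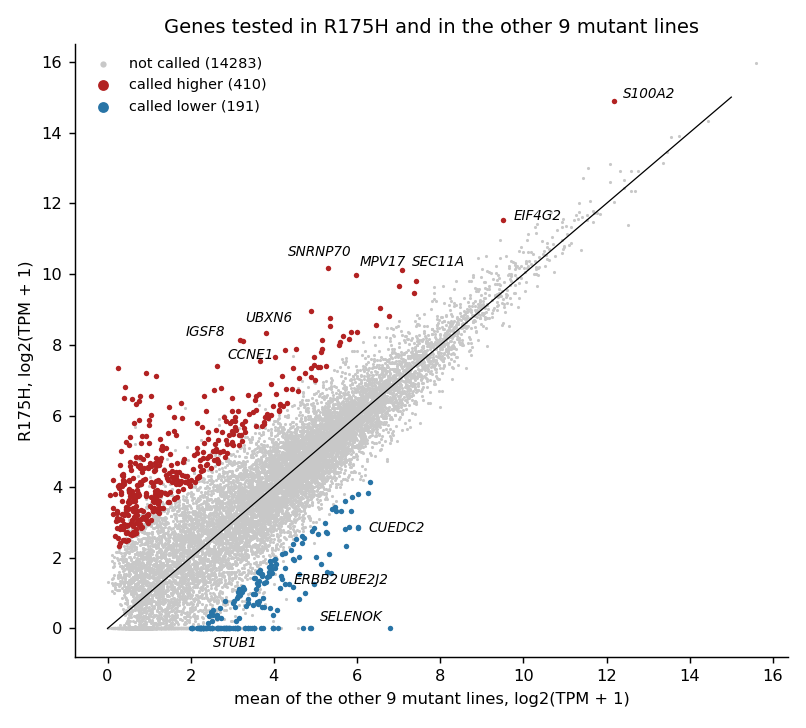
Value in R175H against the mean of the other 9 mutant lines for the 14884 genes examined, both on the log2(TPM+1) scale, with the line of equal values in black. The 410 genes called higher (red) are most dense where the other lines are low, and the 191 called lower (blue) include 76 listed at 0 in R175H.

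Among protein-coding genes, those with the widest gap between R175H and the nearest other mutant line were led by a core splicing gene. SNRNP70 (ENSG00000104852, chr19:49085419-49108605), which encodes a core protein of the U1 particle of the spliceosome, was at 10.2 in R175H, while the other 9 lines ran from 4.44 to 5.73 with a median of 5.30. The controls were at 6.39 in WT, 4.57 in WTKD and 5.50 in the library labelled WTOE, so R175H stood above every other library. In TPM this was 1149 against a median of 38.3. Genes with roles in RNA handling were called in both directions, a grouping made after the values were seen. FAM50A, described with the lower genes, is 1 of them. SRRT, which encodes ARS2 of the nuclear cap-binding machinery, was at 8.14 against 3.95 to 5.72. RBM41, an RNA-binding protein gene, was at 7.56 against 1.57 to 4.96, and RBMS1, which encodes a protein that binds single-stranded nucleic acid, was at 8.54 against 4.09 to 5.96. The pseudogene RBMS1P1 was called as well, at 4.03 against 0 to 1.19, so reads of RBMS1 and its copy may be shared. EIF4G2, a translation initiation factor gene, had one of the highest levels among the called genes, at 11.5 against 8.21 to 10.2, but 9 of 21 alternative settings no longer called it.

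Genes of protein processing stood on both sides. This grouping was made after the values were seen and was not one of the lists. UBXN6 (ENSG00000167671, chr19:4444999-4457794) encodes a cofactor of the p97 ATPase, which pulls ubiquitinated proteins out of membranes and complexes. Its level was 8.34 in R175H, and in the other mutants it ran from 2.01 to 4.59 with a median of 3.94, while WT was at 2.86, WTKD at 3.52 and the library labelled WTOE at 1.83. NGLY1, which encodes the cytosolic enzyme that strips sugar chains from misfolded glycoproteins, was at 7.65 against 1.47 to 5.23. SEC11A, a catalytic subunit gene of the signal peptidase, was at 10.1 against 5.79 to 7.69. All 3 exceeded each control library.

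SELENOK and UBE2J2 were on the lower side. SELENOK (ENSG00000113811, chr3:53884417-53891885), which encodes a selenoprotein of the endoplasmic reticulum membrane with a part in degradation there, was listed at 0 in R175H. In every other library it was above 0, with 3.48 to 5.49 and a median of 5.08 in the other mutants, 4.01 in WT, 5.98 in WTKD and 4.98 in the library labelled WTOE. UBE2J2 (ENSG00000160087, chr1:1253909-1273864), the gene of a membrane-bound ubiquitin-conjugating enzyme of the same degradation route, was at 1.57 against 4.69 to 6.37, a level of 1.97 TPM against a median of 33.2. CUEDC2, whose product has a ubiquitin-binding CUE domain, was at 2.87 against 4.89 to 7.56. STUB1 (ENSG00000103266, chr16:680224-682870) encodes CHIP, the ubiquitin ligase that works with heat shock proteins and is known to act on misfolded p53. It was listed at 0 in R175H, at 2.27 to 4.36 in the other mutants with a median of 3.04, at 4.21 in WT, at 2.40 in WTKD and at 2.46 in the library labelled WTOE. A pseudocount of 5 TPM ended its call, and the other 20 alternative settings kept it. STUB1 overlaps JMJD8 on the opposite strand and has a numbered pseudogene, STUB1P1.

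The remaining leading higher genes were of mixed kind. MPV17, which encodes an inner mitochondrial membrane protein needed to keep mitochondrial DNA, was at 9.98 in R175H against 4.04 to 7.62 in the other mutants. SFXN3, a sideroflexin gene of the same membrane, was at 7.90 against 3.30 to 5.55. SLC39A13 encodes ZIP13, a zinc transporter of intracellular membranes, and its values follow with the zinc list. Mitochondrial genes were also called lower (TAZ, IDH3G and TMEM160, below), and none of the 38 genes of complex I was called. IGSF8, a surface immunoglobulin protein gene, was at 8.10 against 0 to 5.27. SPA17, a sperm protein gene, was at 6.60 against 1.95 to 3.81. VASH2, the gene of an enzyme that removes the last tyrosine of tubulin, was at 4.67 against 0 to 2.02. RELB, a subunit of NF-kappaB, was at 4.81 against 0 to 2.42. FUT3, a fucosyltransferase gene, was at 4.07 against 0 to 1.14, but WT stood above R175H at 6.21.

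On the lower side, EDN1, which encodes the vasoconstrictor peptide endothelin 1, was listed at 0 in R175H and at 2.84 to 4.93 in the other mutants. TAB1, an activator of the kinase TAK1 in the signalling of cytokines and TGF-beta, was listed at 0 against 2.37 to 4.12. NTN4, which encodes the basement membrane protein netrin 4, was at 0.37 against 2.96 to 4.98. ZBTB7B, a zinc finger transcription factor gene, and MXD3, a partner of MAX, were both listed at 0, where their lowest values in the other mutants were 2.81 and 2.31. TAZ in this table is the tafazzin gene of cardiolipin synthesis and not the Hippo pathway protein of that name, and it was at 1.27 against 3.76 to 5.15. The other leading lower genes were HIST1H2BO, a replication-dependent histone gene listed at 0 against 2.98 to 6.78, and IFI27L2, PTOV1, NUDT14 and RDH14.

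The lower genes with the highest mean in the other lines were MIR6087, IDH3G, HIST1H3F, FAM50A and TMEM160. IDH3G, which encodes a regulatory subunit of the mitochondrial isocitrate dehydrogenase of the citric acid cycle, was at 4.14 in R175H against 5.18 to 7.15. FAM50A, a gene of the spliceosome, was at 2.85 against 4.65 to 7.06, and its call held in all 21 settings. HIST1H3F, a histone H3 gene, was at 3.81 against 4.66 to 9.23 but inside the controls, and TMEM160, a mitochondrial membrane protein gene, was at 3.80 against 4.96 to 7.54. Of all 30 leading genes, R175H was beyond the 3 controls as well at 26, and FUT3, IFI27L2, MXD3 and NUDT14 were the exceptions.

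**Figure D3:**
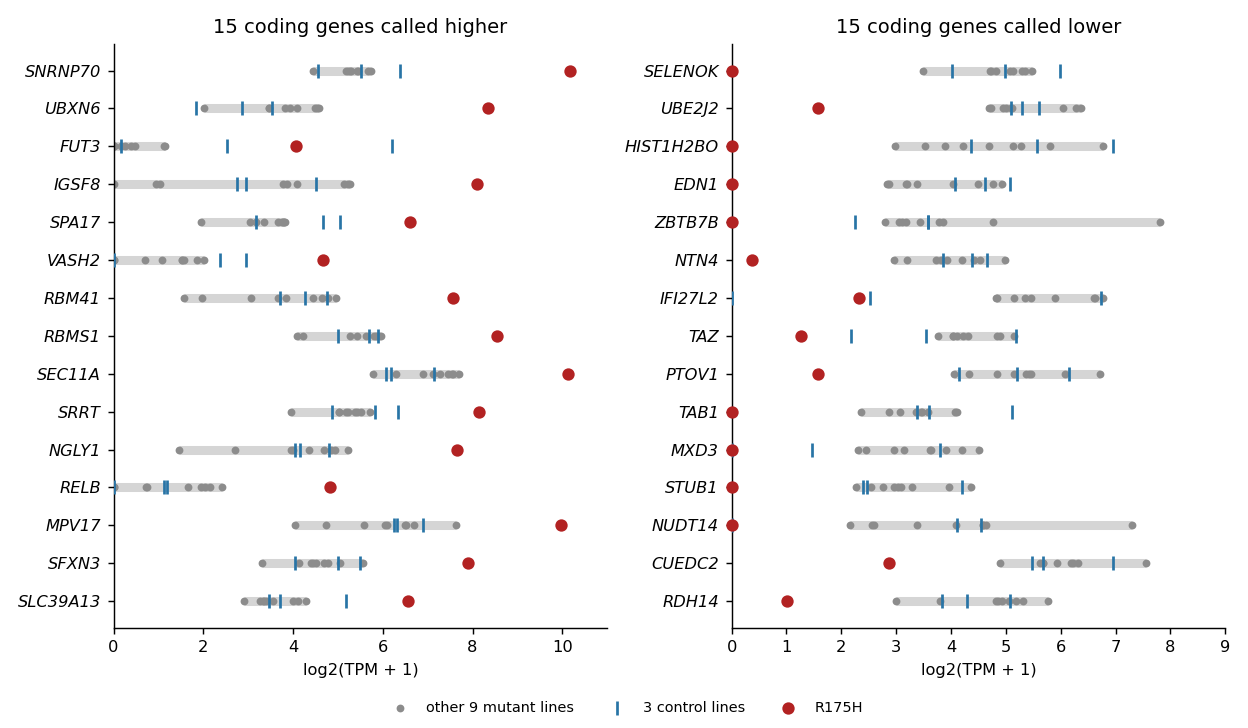
Values on the log2(TPM+1) scale of the 15 protein-coding genes with the widest gap in each direction, with R175H in red, the other 9 mutant lines as grey points over a bar of their range, and the 3 controls as blue marks. SNRNP70 at 10.2 and SELENOK at 0 lead the panels, and for FUT3, IFI27L2, MXD3 and NUDT14 a control lies at or beyond R175H.

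The highest level of any called gene belonged to S100A2 (ENSG00000196754, chr1:153561108-153567890), a calcium-binding protein gene of basal epithelium that p53 and p63 are known to activate. Its level was 14.9 in R175H, and the other mutants ran from 9.36 to 14.2 with a median of 11.9. The controls stood close below R175H, at 14.2 in WT, 14.2 in WTKD and 13.98 in the library labelled WTOE. R175H therefore was nearer to the controls than the median mutant was. The deposited ChIP peaks of WTOE hold a peak at S100A2 with a fold enrichment of 2.98 over input. The summit of this peak lies inside the annotated gene, at -318 bases from the nearest annotated transcript start and upstream of that start. The 101 bases around that summit are shown because S100A2 is both a known p53 target and the most abundant called gene. They are chr1:153564501-153564601 of GRCh38, read on the minus strand 5′ to 3′.

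S100A2 summit: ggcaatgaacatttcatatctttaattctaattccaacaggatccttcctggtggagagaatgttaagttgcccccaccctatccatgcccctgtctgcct

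A p53 decamer, the 10-base repeat unit of the p53 response element, was searched for on both strands. None was found in this window, so no base is in capitals. The decamer was in 2.43% of the 10882 summit windows of the WTOE list on the autosomes and X, and in 2.65% of windows of equal length moved to the side. It was in 5.57% of the 35116 stretches of 250 bases before a RefSeq start site (GRCh38.p14).

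Peaks at promoters were then set beside the calls. A promoter was taken as 2500 bases before to 100 after any annotated transcript start, which can lie inside the gene. A WTOE peak lay there for 23 of the 407 genes called higher that have an annotated start (5.65%), for 16 of 190 called lower (8.42%) and for 6.72% of all genes examined. The mutant peak lists reached fewer promoters, from none of the genes examined in R273C to 2.69% in R273H. These shares count examined genes and not peaks, and the authors report some R273C peaks in promoters. The reason for that difference was not tested. Of the genes named here, DMKN, EFNA1, HBEGF, IGSF8, S100A2 and VASH2 on the higher side and DTX2, PTOV1 and TAB1 on the lower side had a WTOE peak, and no decamer was found around any of these 9 summits. The largest enrichments on each side were 3.93 at VASH2 and 4.18 at DTX2, and the DTX2 window is shown for that reason, although the DTX2 call held in only 10 of 21 alternative settings. The DTX2 summit lies inside the annotated gene, 264 bases after a transcript start (chr7:76492367-76492467, plus strand).

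DTX2 summit: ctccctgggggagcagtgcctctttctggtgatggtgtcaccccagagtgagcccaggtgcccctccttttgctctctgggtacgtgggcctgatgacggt

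p53 target genes were then read as a list of genes of the cell cycle arm and the feedback loop. Of 41 examined, 3 were called higher and none lower, against 2.75% and 1.28% of all genes. The median relative difference was 0.35, where the other 9 lines had medians from -0.40 to 0.63, so R175H had rank 3 of 10. GDF15 (ENSG00000130513), a secreted stress cytokine gene, was at 5.35 in R175H against 0 to 4.28 in the other mutants (median 3.22), with WT at 3.93, WTKD at 3.01 and the library labelled WTOE at 4.88. It kept its call in all 21 alternative settings. TRIAP1, which encodes a small p53-induced survival protein, was at 7.44 against 0.85 to 6.71 (median 5.25). Its controls were at 2.16 in WT, 6.13 in WTKD and 6.04 in the library labelled WTOE. Its difference from the mean of the other lines was 2.46 with R273H and 1.95 without, which ended the call, and 18 of 21 settings kept it. The remaining called gene was S100A2, also kept in 18 of 21. PLK3, SFN (14-3-3 sigma) and EPHA2 lay above all 9 other mutants without reaching the size limit, at 3.68, 9.81 and 7.69. Protein-coding genes as a whole had a median relative difference of 0.08, and those in the highest of 5 bins of mean level 0.18, and the medians of lists of abundant genes stand beside these values.

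Heat shock chaperones were read as a list because they hold misfolded p53. The median relative difference was 0.45 over 32 genes, above each of the other 9 lines, which ran from -0.30 to 0.31, and 22 of the 32 were on the higher side, beside 63.6% of all protein-coding genes in the highest of 5 bins of level. Of these, 4 members lay above all 9 other lines. HSPA8, the constitutive HSC70 chaperone, was at 13.01 against 10.17 to 12.35. HSPA9, its mitochondrial relative, was at 10.1 against 8.01 to 9.90. CCT2 and CCT3, subunits of the ring chaperonin that folds actin and tubulin, were at 9.33 and 10.98, where the highest other mutants were at 9.24 and 10.8. None of these reached the size limit. The stress-inducible HSPA1A and HSPA1B were within the range of the other lines at 6.26 and 5.55, and HSF1, the transcription factor of the heat shock response, was below it at 4.23 against 4.55 to 7.62. The only called member was STUB1, on the lower side. The 35 proteasome genes had a median of 0.21, also above the other lines (-0.20 to 0.10), with no called member. The 32 genes of the unfolded protein and amino acid stress list had a median of 0.16, inside the others' range of -0.20 to 0.28.

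Zinc genes were read because the arginine replaced in R175H borders the zinc site. Of 21 examined members of the metallothionein and zinc transport list, 1 was called higher and none lower, against 2.75% and 1.28% of all genes. The median of 0.07 was inside the range of the other lines (-0.34 to 0.18). SLC39A13 (ENSG00000165915, chr11:47407132-47416496) was at 6.56 in R175H against 2.91 to 4.28 in the other mutants, with a median of 3.39. WT was at 3.47, WTKD at 3.72 and the library labelled WTOE at 5.18, so R175H was the highest of the 13 libraries. The main metallothioneins did not set R175H apart, with MT2A at 14.3 against 13.7 to 17.2 and MT1E at 11.6 against 9.97 to 12.5. MT1G, at 2.61 against 0 to 1.64, fell just short of the size limit and was the nearest gene outside it on the higher side, while TIGD7 at 2.49 was the nearest inside. On the lower side MAN2B1 (1.60) was just inside and MFSD12 (3.10) just outside. SLC39A4, an importer of the plasma membrane, was below all 9 others at 6.68 against 6.76 to 9.10. H179R, the other mutant at the zinc site, was the nearest of the 9 lines at SLC39A13, as it was at 15.9% of all genes called higher. The MT1 genes are close copies of each other, so their single values are uncertain.

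EGF receptors and their ligands were read next, since they drive the growth of MCF10A cells. Of 24 examined, 1 was called higher and 2 lower, against 2.75% and 1.28% of all genes. ERBB2 (ENSG00000141736, chr17:39687914-39730426), which encodes the HER2 receptor, was at 1.72 in R175H, or 2.28 TPM. In the other mutants it was at 3.23 to 5.34 with a median of 4.67, and in the controls at 4.02 in WT, 3.20 in WTKD and 3.49 in the library labelled WTOE, so R175H was the lowest library. ERBB2 overlaps MIEN1 and PGAP3 on the opposite strand. NRG1, which encodes the ligand neuregulin 1 of ERBB3 and ERBB4, was at 1.12 against 1.96 to 5.55, and 9 of 21 alternative settings ended its call. HBEGF, the heparin-binding ligand of EGFR, was at 4.16 against 0.18 to 3.41, with WTKD at 3.84 and the library labelled WTOE at 4.37. TGFA and the feedback phosphatase DUSP6 were above all 9 others at 4.86 and 4.92 without a call. EGFR itself was inside the range at 7.25 against 7.13 to 8.53.

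Basal and squamous genes did not move as 1 group. The 11 basal mammary markers had a median relative difference of 0.96, second of 10 lines, in a spread from -1.69 to 1.58 over the other 9. TP63, the p53 family member that maintains basal epithelium, was at 4.87 in R175H against 0 to 4.71, with 3 of the 9 other mutants listed at 0. Yet the controls were at 4.80 in WT, 5.41 in WTKD and 5.27 in the library labelled WTOE, so R175H was at the level of the controls. The 12 examined S100 genes had a median of 0.77, above the range of -0.55 to 0.38 in the others, with S100A2 and S100A14 called. S100A14, at 9.68 against 1.02 to 9.55, was likewise inside the controls (7.88 to 10.2). Of 14 examined keratins, 7 were above and 7 below the median shift of all genes, with a list median of -0.04. KRT80 was called higher at 6.05 against 2.91 to 5.26, above all controls, while KRT10 and KRT81 lay below all 9 other mutants at 4.20 and 11.4 without a call. Of the 38 genes of the cornified envelope and squamous differentiation, 25 were listed at 0 in R175H, and of the 16 examined 9 were above and 7 below the shift, which gave rank 4 of 10. DMKN, which encodes the skin protein dermokine, was at 7.10 against 2.57 to 6.34, and the controls were at 5.76 to 7.67. SERPINB1, a protease inhibitor gene, was called lower at 2.03 against 2.05 to 6.23. The 8 examined general epithelial markers had a median of 0.23, inside the others' range.

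**Figure D4:**
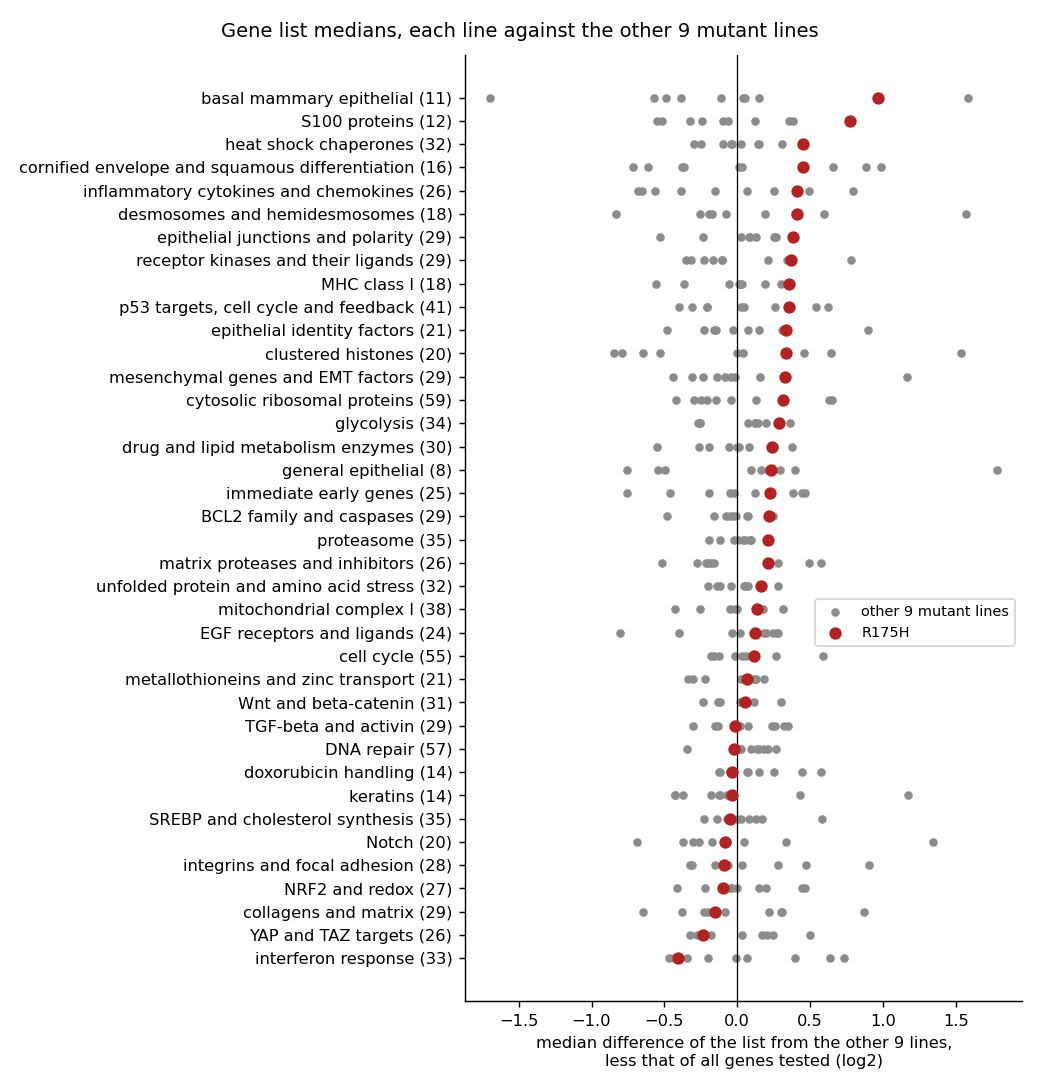
Median relative difference (log2) of each gene list of 8 or more examined genes, for R175H (red) and for each other mutant line against its own other 9 lines (grey), with the number of examined genes in parentheses. R175H has the highest of the 10 medians for S100 genes at 0.77, heat shock chaperones at 0.45, epithelial junctions at 0.38, MHC class I at 0.35 and the proteasome at 0.21, which is 5 of 38 lists, where Y234C has the highest median in 14 and R248Q in 7.

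Cell cycle genes included 2 called higher of 55 and none lower, against 2.75% and 1.28% of all genes, with a median of 0.12. CCNE1 (ENSG00000105173, chr19:29811991-29824312), the cyclin that drives entry into S phase, was at 7.36 in R175H against 3.52 to 5.37 in the other mutants (median 4.57). WT was at 5.36, WTKD at 5.04 and the library labelled WTOE at 4.89, so R175H stood 1.99 above the nearest of all 12 libraries, which was R248W, and the call held in all 21 settings. CCND2, a D-type cyclin gene, was called higher at 6.63 against 1.32 to 6.37, but lay below all 3 controls (6.71 to 7.83). For this gene R175H thus lay between the controls and the other mutants.

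Adhesion, matrix and signalling lists each held few called genes. LAMB2, which encodes the laminin beta 2 chain, was at 2.70 against 4.44 to 6.71, and R175H was the lowest of the 13 libraries. ITGB6, the integrin beta 6 gene, was at 5.68 against 0 to 5.43, and ITGB2, the leukocyte integrin gene, at 1.23 against 1.86 to 4.63. The metalloprotease genes ADAM19 and ADAMTS1 were higher at 2.90 and 4.22, where the highest other mutants were at 1.53 and 2.94. EFNA1, the ephrin A1 ligand gene, was at 6.14 against 0 to 4.88. Of 29 examined mesenchymal genes and EMT factors, 20 were above the shift of all genes, with a median relative difference of 0.33 and rank 2 of 10. FOXC2, a forkhead factor gene, was the only member above all 9 others, at 3.71 without a call. Below all 9 others lay 4 members, among them AXL at 5.71 against 6.35 to 7.91 without a call. The only called member was another of these 4. ZEB2, a repressor of epithelial genes, was called lower at 0.36 against 0.79 to 3.90, and 16 of 21 settings kept that call. Among inflammatory genes IL1A was called at 6.77, where the other mutants had a median of 4.69 and a highest value of 6.22, with the library labelled WTOE higher still at 7.43, and RELB as given above. IFI44L was the only called interferon gene, at 5.17 against 0.34 to 4.19, in a list whose median of -0.41 ranked eighth of 10.

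Of YAP and TAZ targets, AJUBA was higher (7.39 against 2.48 to 6.23) and NUAK2 lower (0.21 against 1.29 to 4.12). Of Notch genes, the glycosyltransferase gene LFNG was higher (3.04 against 0 to 2.59) and the regulator gene DTX2 lower (1.65 against 2.47 to 5.48), and both lay inside the controls. LFNG kept its call in 14 and DTX2 in 10 of 21 alternative settings. WLS, which escorts Wnt proteins to the surface, was lower at 3.32 against 3.99 to 6.73. SCAP, the escort of the sterol regulator SREBP, was lower at 3.33 against 4.40 to 7.40. BCL11A, IER2 and ALOX15B were called higher at 4.06, 3.93 and 5.46, each within 1 of the highest other mutant. In all, 23 of the 1005 examined genes on any list were called higher (2.29%) and 11 lower (1.09%), which is close to the 2.75% and 1.28% over all genes.

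Many of these calls were near the limit. Of the called genes named here, 15 of 38 higher and 10 of 31 lower kept their call in all 21 alternative settings. Leaving out R273H alone ended the calls of EIF4G2, TRIAP1, IFI44L, AJUBA, LFNG, DTX2, S100A14, BCL11A, ALOX15B, TIGD7 and MAN2B1. Leaving out Y234C alone ended those of EIF4G2, DMKN, IFI44L, LFNG, DTX2, IER2, BCL11A and TIGD7. R248Q alone decided EIF4G2, NRG1, ZEB2, BCL11A, TIGD7 and MAN2B1, G245S alone NRG1, ZEB2, ALOX15B, TIGD7 and MAN2B1, R273C alone LFNG, IER2, TIGD7 and MAN2B1, R248W alone NRG1, DTX2, BCL11A and TIGD7, and H179R alone LFNG. Without the library named, the differences from the mean of the remaining lines were 1.79 to 2.00 in size, or -1.74 for NRG1 without G245S, where the limit is 2.

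The called genes were also set beside the controls, as a description only: the calls were made on the R175H value that enters here too, so a high share beyond the controls is built in and supports nothing. Of the 410 genes called higher, R175H was above all 3 controls at 347 (84.6%), inside their range at 60 and below it at 3. Over all genes examined R175H was above the controls at 18.4%. Of the 191 called lower, it was below all 3 controls at 134 (70.2%) and inside at 57, and over all genes it was below the controls at 24.7%. At TP63, S100A14, DMKN, CCND2, IL1A, HBEGF, LFNG and FUT3, R175H was above the other mutants and below the highest control.

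The called genes differed from the rest in kind. Protein-coding genes were 77.7% of those examined, 49.5% of those called higher and 83.2% of those called lower. Pseudogenes made up 24.1% of the higher genes against 11.4% of all, and 86 of the 410 were long non-coding RNAs, which were 8.63% of all. At least 1 of the other 9 lines was listed at 0 for 315 of the 410 higher genes. The 3 widest gaps of all belonged to LENG8-AS1, AC016866.2 and MTND4P24, none of them protein-coding, and the genes of this kind were picked out after their values were seen. LENG8-AS1, an antisense transcript of LENG8, was at 7.35 against 0 to 1.34, while LENG8 itself was at 2.37. MTND4P24, a copy of a mitochondrial gene, was at 7.21 against 0 to 2.63, and MT1HL1, a metallothionein copy, at 3.25 against 0 to 1.20. Among the lower genes the highest mean belonged to MIR6087, a microRNA locus listed at 0 in R175H and in the library labelled WTOE. Of the 69 called genes named here, 40 overlap another annotated gene and 10 have a numbered pseudogene, and since the strand setting of the counting is not given in the sources used here, their reads may be shared.

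GC content moved with the lower calls. The longest transcripts of the 159 protein-coding genes called lower had a median GC content of 55.5%, against 47.3% for all protein-coding genes examined and 49.9% for those called higher. With the genes in 5 equal bins by GC content, 2.90% were called lower in the highest bin and 0.692% in the lowest. Across protein-coding genes the Spearman correlation between the difference and GC content was -0.06 in R175H, a weak value beside the -0.40 to 0.44 of the other lines. It is a description over 11562 genes of 1 library, and genes are not independent. With every library centred within bins of GC content, an alternative added after seeing the data, 436 genes were higher and 226 lower, of which 371 and 155 were among the 410 and 191. The part of GC content in the single calls was not tested. By chromosome, the median relative difference of protein-coding genes lay between -0.17 on chromosome 19, whose genes had the highest median GC content of 58.3%, and 0.19 on chromosome 7.

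**Figure D5:**
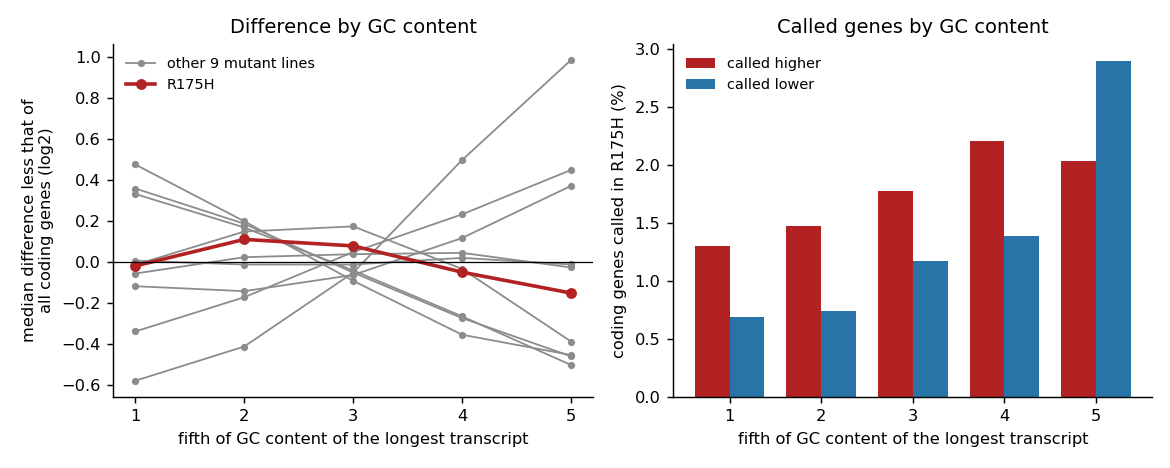
Left, median difference (log2, less that of all coding genes) in 5 equal bins of GC content for R175H (red) and the other mutant lines (grey). Right, percentage of protein-coding genes called higher (red) or lower (blue) in R175H in each bin, where the lower calls go from 0.692% to 2.90%.

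As a whole profile R175H was set beside each other library. Across the 14884 genes its Pearson correlation was highest with Y163C (0.87) and Y220C (0.86) and lowest with R273H (0.77) and Y234C (0.79). Structural mutants stood at both ends, since Y234C is one as well, and Y163C and Y220C also had among the highest mean correlations with all mutant lines. H179R, at the same zinc site, came to 0.84, as did R248W and G245S, and R273C to 0.85. Its mean correlation with the other mutants was 0.83, sixth of the 10 lines, in a range from 0.78 to 0.85. With the controls it was 0.86 for WTKD, 0.83 for the library labelled WTOE and 0.82 for WT. These are descriptions across genes of single libraries, and neighbouring values in this order were not tested against each other. The nearest other line at the genes called higher was most often Y163C, at 18.0% of them, and at the genes called lower Y234C, at 25.7%, and R273H, at 22.5%.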

How the data were processed

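RNA was measured in 13 MCF10A libraries, 1 per line, and V5-tagged p53 binding in 5 ChIP libraries with 5 inputs. The authors aligned RNA reads with STAR to GRCh38 and deposited log2 values of TPM with a pseudocount of 1 (mitochondrial RNA dropped, duplicates marked, read depth not kept, strand setting not given in the sources used here). Each TPM column summed to 1000000 when the log was undone. ChIP reads were aligned with Bowtie2 2.1.0, per the submitters' processing notes, and the deposited MACS2 2.1.2.20181017 peak lists give a fold enrichment over input (a ratio) and −log10 q-values for each peak, called per sample.

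Genes with a value of 1 or more in at least 3 of 13 columns were kept, and R175H was compared with the mean and range of the other 9 mutant columns at a threshold of 2 on the log2 scale. No p-value was computed, since no line has a replicate. The rule for named genes took the 15 protein-coding called genes with the widest gap in each direction, the 5 called genes of highest level in each, every called member of the gene lists, CDKN1A and MDM2, and the genes nearest the threshold; 1 further gene of the rule is not reported here. The members and lists were chosen with earlier results of these data known. Of the genes kept, 14786 (99.3%) were found in GENCODE, which gave position, type, length and GC content. The alternatives were other filters, pseudocounts, thresholds, scalings and sets of comparison lines, and GC centring and protein-coding genes only were added after seeing the data. The calling rule was run on simulated data, with differences well above the threshold planted only at well-expressed genes of small spread. That run cannot show how the rule does at genes of low level. Python 3.11.15, numpy 2.4.6, pandas 2.3.3 and matplotlib 3.10.9 were used.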

Additional observations from a re-analysis of the deposited data

Results flagged for a closer look

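The share of all TPM held by the 50 highest genes was 46.8% in Y234C, and its gap to the nearest of the other 9 mutant lines was 0.475 of the whole range, above Dixon's critical value for 10 lines. It was the only 1 of 8 library measures checked that did so, and chance marks about 1 in 20 groups by this measure. R175H stood at 33.6%.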

How the results depend on the processing

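Without a filter 631 genes were called higher, with a filter of 3 in at least 3 columns 224, and among protein-coding genes only (added after seeing the data) 203. With a pseudocount of 0.1 TPM 618 genes were higher and 318 lower, and with 5 TPM 141 and 28. A threshold of 1 gave 957 and 588, and a threshold of 3 gave 142 and 46. Without R273H and Y234C 392 were lower, and against the structural mutants only (G245S, H179R, Y163C, Y220C and Y234C) the count was 295. Leaving out each of the other lines in turn gave 386 to 444 higher and 192 to 268 lower. Quantile normalization (455 and 184), centring on medians (425 higher), rescaled TPM (529 and 226), the median of the other lines (386 and 195), all 12 other libraries (340 and 139) and GC centring (436 and 226) stayed within 1.5 times of the counts given. Of 1545 recomputed differences of named genes 47 moved by more than the spread of the other lines, and 0 of those of called genes changed sign. Of 902 list medians 6 moved. Changes of sign were not counted for list medians or for named genes that were not called. Of the called genes named, 15 of 38 higher and 10 of 31 lower kept their call in all 21 settings. TIGD7, MAN2B1 and DTX2 kept it in 10, BCL11A in 11, EIF4G2 and NRG1 in 12, and S100A2 in 18, with losses under quantile normalization, with rescaled TPM and against the structural mutants only. The causes were not tested. No paired analysis was possible because each line has 1 library and no result comes from a test. Depth is unknown, so counting error at low values could not be given.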
